A study of Mus musculus with 9 samples.

Results

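The genes described here are the chains of collagen and laminin and a set of glycoproteins and enzymes that build the extracellular matrix, measured in mouse embryonic stem (ES) cells with more or less of Yap1. Members were chosen by symbol: every collagen chain, every laminin chain, and 16 named genes for fibronectin, Sparc, linkers, other matrix glycoproteins and enzymes that fold or crosslink collagen. They are 71 of the 18504 genes with a usable symbol, made up of 44 collagen chains, 11 laminin chains, 3 linkers of the basement membrane, 7 matrix glycoproteins and 6 folding and crosslinking proteins. A further gene of the choice, P3h1, is listed under its older symbol Lepre1 and was not counted as a member.

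Polyadenylated RNA was sequenced in 9 libraries. All groups are J1, an established line of mouse ES cells (129S4/SvJae strain, passages 5 to 7). Yap1_OE is an overexpression library and BirA is its control. Yap1_KO1 and Yap1_KO2 are labelled as knockouts and share the control ESC. Yap1_KD1 is a knockdown with its control, titled Control, and dESC_Yap1_KD1 is a knockdown in differentiated cells with its control dESC_control. The sources used here do not say how the cells were differentiated, how Yap1 was altered, or whether the knockout libraries came from separate clones. Values are FPKM (fragments scaled by transcript length and library size), so levels of different genes can be set side by side per length.

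Basement membranes are thin sheets that carry epithelia and surround the early embryo. Laminin trimers of an alpha, a beta and a gamma chain self-assemble on the cell surface, collagen IV forms a covalent network, and nidogens and perlecan (Hspg2) join the sheets. Fibrillar collagens are instead the cables of connective tissue, and every collagen trimer is hydroxylated, chaperoned and crosslinked by a shared set of enzymes. Yap1 is a transcriptional coactivator that binds DNA through TEAD proteins and responds to the stiffness and spread of the matrix under a cell.

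Yap1 itself stood at 46.7 FPKM in BirA and 139 in Yap1_OE. It was 65.4 in ESC against 57.3 in Yap1_KO1 and 27.6 in Yap1_KO2, so both libraries labelled as knockouts still held Yap1 RNA. Yap1 was 37.4 in Control and 4.55 in Yap1_KD1, and 78.0 in dESC_control and 12.5 in dESC_Yap1_KD1. Yap1_KO1 was the shallowest library, at an estimated 9.23 M fragments (M, mega), and Control the deepest at 22.4 M, so that 1 FPKM of a transcript of 5 kb stood for 46.2 to 112 fragments. Only the knockout group has 2 libraries, and every other difference is 1 library against 1, with no replicate check and no p-value. In those comparisons a gene counts as higher or lower when log2(FPKM + 1) differed by 1 or more, which is 2-fold of FPKM + 1. A low gene can thus differ by more than 2-fold in FPKM and not be counted. Only genes that reached 1 FPKM in one of the libraries compared were tested. A gene under 1 FPKM in the other library could therefore count in 1 direction only.

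In the undifferentiated cells matrix glycoproteins were the most abundant group of members, and fibrillar collagen was low. Summed levels in the 7 libraries were 382 to 487 FPKM for the glycoproteins, 122 to 163 for the linkers, 102 to 154 for laminin chains, 68.4 to 165 for the other collagens, most of it Col18a1, and 3.65 to 7.08 for fibrillar chains. Of the 71 members, 35 reached 1 FPKM in some library and 27 reached 5 FPKM. The other 36 were under 1 FPKM in all 9 libraries, among them 17 of the 24 other collagens, 7 of the 9 network-forming chains, 6 of the 11 fibrillar chains, 4 laminin chains, Tnc and Lox. None of the 11 fibrillar chains reached 5 FPKM in any of the 7 undifferentiated libraries. Markers of fibroblasts, which also make collagen and can be carried over as feeder cells, were checked beside this: Of a list of 10, Dcn, Lum and Fap were listed at 0 in all 7, and the whole list summed to 9.20 to 41.5 FPKM. Most of that sum was Thy1, at 4.64 to 39.2 FPKM, with Pdgfrb at 0.898 to 2.75 and Twist1 at 0.183 to 2.79, and the part of such cells in the collagen levels was not tested.

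Spp1 (osteopontin, a secreted phosphoprotein that binds integrins) was the most abundant member in every undifferentiated library except Yap1_KO2, with a median of 185 FPKM and a range of 133 to 227. Fn1 (fibronectin) had a median of 143 FPKM and ranged from 105 to 194. Nid2 varied least of the members named here, from 84.2 to 101 FPKM with a median of 92.7. Sparc, a collagen-binding glycoprotein of basement membranes, ranged more widely, from 59.7 to 138 FPKM with a median of 92.4. Col18a1, the core of a basement membrane proteoglycan and the source of endostatin, was by far the most abundant collagen chain at a median of 71.2 FPKM, with 57.5 in the lowest library and 159 in the highest.

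Among laminin chains Lamc1, the common gamma chain, led with a median of 75.2 FPKM and a range of 56.3 to 93.3. Its usual partner Lamb1 stood at 15.8 to 27.04 FPKM. The alpha chains were Lama5 at 7.18 to 16.5 FPKM and Lama1 at 4.42 to 9.56 FPKM. The gamma chain was thus the most abundant part of the trimer at the RNA level, and the 2 alpha chains were within 1.07-fold to 3.73-fold of each other, Lama5 always above Lama1. Lamb3, a beta chain of the laminin that anchors epithelial sheets, was lower, with a range of 0.0975 to 2.45 FPKM.

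**Figure D1:**
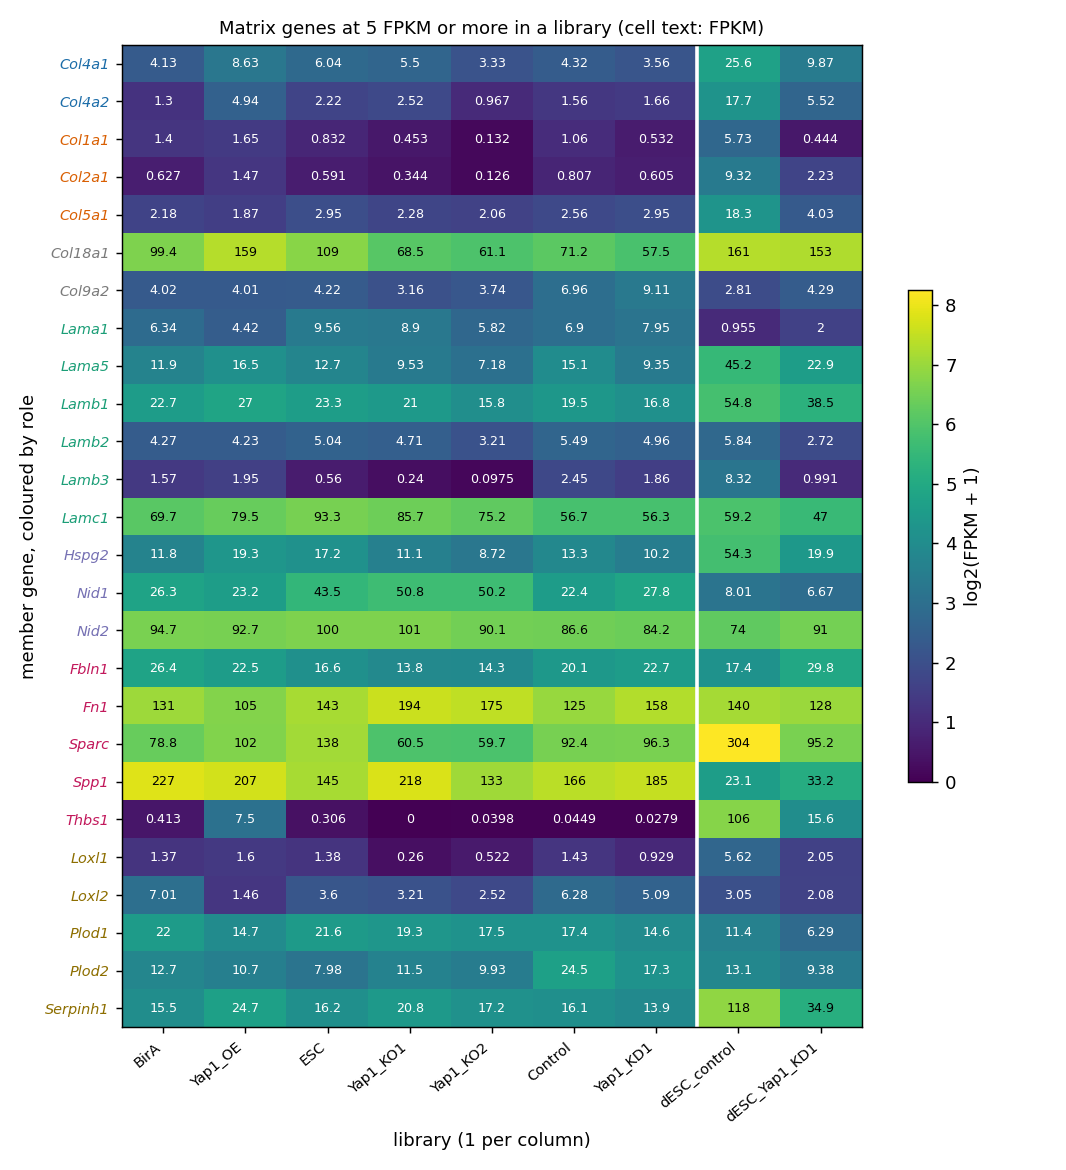
Levels of 26 members that reached 5 FPKM in at least 1 library (rows, grouped and coloured by role) in the 9 libraries (columns, 1 library each); cell text is FPKM and colour is log2(FPKM + 1). The differentiated control, right of the white line, has the highest Thbs1, Serpinh1, Col4a1, Col4a2 and Col5a1 of the 9 libraries, and both differentiated libraries are low in Lama1, Nid1 and Spp1.

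The collagen IV chains Col4a1 and Col4a2, which assemble together into the network of every basement membrane, are read from opposite strands. In the RefSeq table of GRCm38.p6 their start sites lie 21 bases apart on chromosome 8. Promoter windows of 250 bases before to 50 after a start site were found for 49 of the 71 members. The stretch of Col4a2 from 52 to 23 bases before its start site, chr8:11312753-11312782 on the plus strand, is shown because the results below return to this pair. Capitals mark a CCAAT box and, on the minus strand, a GC box (GGGCGG).
Col4a2: cgcgCCGCCCgaggagctccCCAATttgtt
Lamb3 and Hspg2 are shown because both were lower in the differentiated knockdown and their windows hold different motifs. The 250 bases before the Lamb3 start site are chr1:193301993-193302242, plus strand. This start was chosen from its 2 listed ones because its window holds GGAATG, and the other window holds none. Capitals mark GGAATG, the core bound by TEAD proteins, read from the minus strand. The 250 bases before the Hspg2 start are chr4:137468553-137468802, plus strand, and capitals mark 5 GC boxes.
Lamb3: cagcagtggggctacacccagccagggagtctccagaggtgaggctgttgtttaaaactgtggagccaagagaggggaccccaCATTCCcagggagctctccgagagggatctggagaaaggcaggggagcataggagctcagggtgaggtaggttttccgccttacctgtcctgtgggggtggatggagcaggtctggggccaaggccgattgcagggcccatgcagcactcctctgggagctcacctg
Hspg2: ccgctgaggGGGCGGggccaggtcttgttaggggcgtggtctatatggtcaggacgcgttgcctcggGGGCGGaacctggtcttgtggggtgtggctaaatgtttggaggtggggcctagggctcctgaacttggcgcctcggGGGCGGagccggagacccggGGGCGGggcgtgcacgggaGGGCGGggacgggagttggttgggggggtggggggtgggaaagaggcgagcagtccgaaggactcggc
Counting a gene once if any of its windows held the motif on either strand, GGAATG occurred in 7 of the 49 members (14.3%) and in 16.6% of all 27025 genes with a window. GGGCGG occurred in 32 of the 49 (65.3%) and in 38.2% of all genes. CCAAT was in 16 of the 49 against 41.1% of all, TATAAA in 8 against 15.7%, and the AP-1 motif TGANTCA in 1 against 8.97%. These motifs were searched by their letters alone, and a match is a description of the window.

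In the overexpression library a few members of the basement membrane and its surroundings were higher, and the lysyl oxidase Loxl2 was lower. Of the 31 members tested, 3 were at least 2-fold higher against 1.6% of all genes, and 1 was at least 2-fold lower against 2.35%. Their median log2 ratio was -0.0047, beside 0.019 for all genes, so the middle of the set was at the level of its control. With a pseudocount of 0.1 FPKM in place of 1 the counts became 5 and 4, and the shares of all genes at that setting are not given here.

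Thbs1 (thrombospondin, a matricellular glycoprotein) was 0.413 FPKM in BirA and 7.498 in Yap1_OE, a log2 ratio of 2.59. The BirA value stands for about 35.3 fragments, and no other undifferentiated library exceeded BirA. Col4a2 was 1.30 FPKM in BirA and 4.94 in Yap1_OE (log2 ratio 1.37), and its partner Col4a1 was 4.13 and 8.63 (0.91). Both chains were higher in Yap1_OE than in each of the other 6 undifferentiated libraries.

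Perlecan (Hspg2) was 11.8 FPKM in BirA and 19.3 in Yap1_OE, Serpinh1 (the chaperone of procollagen) 15.5 and 24.7, and Col18a1 99.4 and 159, each higher by less than 2-fold. The remaining basement membrane genes were close to the control. Sparc was 78.8 and 102 FPKM, Lama5 11.9 and 16.5, and Lamb1 22.7 and 27.04. Lamc1 was 69.7 and 79.5 FPKM, Nid1 26.3 and 23.2, Nid2 94.7 and 92.7, Fn1 131 and 105, and Lama1 6.34 and 4.42. The last 4 of these lay below the control, so directions were mixed.

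Loxl2 was 7.01 FPKM in BirA and 1.46 in Yap1_OE, 20.8% of the control. Genes induced by low oxygen moved beside it: 7 of 13 were at least 2-fold lower, all 13 were below the control, and their summed level was 1698 FPKM in BirA and 977 in Yap1_OE. Their part in the Loxl2 difference was not tested. The other undifferentiated controls differed too, with 3.60 FPKM of Loxl2 and 1123 FPKM of these genes in ESC, and 6.28 and 1843 in Control. With ESC as the control the log2 ratios of FPKM + 1 became -0.90 for Loxl2 and 0.88 for Col4a2. Both were under the threshold for counting, and Thbs1 alone stayed past it. In FPKM, Loxl2 was 3.60 in ESC and 1.46 in Yap1_OE, and Col4a2 2.22 and 4.94, both past 2-fold.

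Other genes of collagen maturation showed 1 of 10 higher and 1 lower. Bmp1, which cleaves the procollagen tail, was 0.832 FPKM in BirA and 3.44 in Yap1_OE, and P4ha1, a prolyl hydroxylase subunit also induced by low oxygen, was 17.2 and 6.18. Among matrix proteases and their inhibitors 2 of 10 were higher and 0 lower. Among other glycoproteins and proteoglycans 1 of 6 was higher, the glypican Gpc4 at 10.8 and 25.1 FPKM.

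In the libraries labelled as knockouts most members tested lay slightly below ESC, and Sparc stood out. Both libraries were at least 2-fold lower for 1 of 25 members, against 0.979% of all genes, and at least 2-fold higher for 0, against 0.191%. Over these 25 members the median log2 ratio was -0.30 beside 0.0061 for all genes, with 18 below ESC in both libraries and 4 above in both. In Yap1_KO2 alone 2 members were at least 2-fold lower, Sparc among them, and the share of all genes for that library alone is not given here.

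Sparc was 138 FPKM in ESC, 60.5 in Yap1_KO1 and 59.7 in Yap1_KO2. The pair differed by less than 1 FPKM and lay below the other controls too, BirA at 78.8 and Control at 92.4. With limma over all genes its log2 change was -1.18 (SE 0.093) with an adjusted p of 0.0812, so it missed the threshold of 0.05. Without the small RNA rows of the table the adjusted p of Sparc was 0.0247, and with the gene medians centred it was 0.0079. It was 0.0939 with a filter of 5 FPKM, 0.104 with a pseudocount of 0.1 FPKM, 0.160 with 3 controls and 0.281 without a filter.

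By the same limma test 0 of the 25 members passed in either direction, against 0.0173% of all genes called higher and 0.156% called lower. Unadjusted, 7 had a p under 0.05, 1 higher and 6 lower, which is 28% of them beside 23.1% of all genes. The 6 lower included Sparc, Col18a1 (-0.74, SE 0.12), Hspg2 (-0.75, SE 0.18), Loxl1 (-0.78, SE 0.27) and Lama5 (-0.56, SE 0.20), with limma adjusted p of 0.150 to 0.212 outside Sparc. Fn1 was the 1 higher, at 194 and 175 FPKM against 143 in ESC. No label says that the pair came from separate cultures, so these p-values reflect the spread of these samples alone, and that spread may be technical.

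Several of these genes lay outside the range of all 3 undifferentiated controls. Col18a1 was 68.5 and 61.1 FPKM in Yap1_KO1 and Yap1_KO2, against 99.4, 109 and 71.2 in BirA, ESC and Control. Lama5 was 9.53 and 7.18 against 11.9, 12.7 and 15.1. Nid1 was on the other side, at 50.8 and 50.2 FPKM against 26.3, 43.5 and 22.4, as was Serpinh1, at 20.8 and 17.2 against 15.5, 16.2 and 16.1. Among the rest, Nid2 was 101 and 90.1 FPKM beside 100.5 in ESC, and Lamc1 85.7 and 75.2 beside 93.3. Col4a1 was 5.50 and 3.33 FPKM beside 6.04 and Col4a2 2.52 and 0.967 beside 2.22, so the pair of libraries lay apart for collagen IV. Lama1 was 8.90 and 5.82 FPKM beside 9.56, and Lamb1 21.0 and 15.8 beside 23.3. Smoc1, a calcium-binding glycoprotein outside the set, was 6.19 FPKM in ESC and 1.69 and 1.87 in the pair, while 0 of 10 other collagen-modifying genes were 2-fold apart in either library.

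GC content moved with these ratios across the genome: across 11468 genes the Spearman correlation of GC content with the log2 ratio was -0.560 in Yap1_KO1 and -0.564 in Yap1_KO2. Genes are not independent replicates, and both libraries share the ESC control. The members had a median GC content of 53.6% beside 49.9% for all genes. After the trend was removed, Sparc had a limma adjusted p of 0.0290, while the members with an unadjusted p under 0.05 went from 7 to 4 of 25, which is 16% beside 13.8% of all genes.

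Knockdown of Yap1 in undifferentiated cells left the matrix genes near their control. Of 29 members tested, 0 were at least 2-fold higher and 0 lower, where 0.506% of all genes were higher and 0.506% lower. The log2 ratios ran from -0.64 to 0.34 with a median of -0.12, beside 0.0092 for all genes. Lama5 had the lowest, at 15.1 FPKM in Control and 9.35 in Yap1_KD1, and Col9a2 the highest, at 6.96 and 9.11.

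Values of the basement membrane set were close in both libraries. Sparc was 92.4 FPKM in Control and 96.3 in Yap1_KD1, Nid2 86.6 and 84.2, Lamc1 56.7 and 56.3, and Lamb1 19.5 and 16.8. Col4a1 was 4.32 and 3.56 FPKM, Col4a2 1.56 and 1.66, Hspg2 13.3 and 10.2, and Serpinh1 16.1 and 13.9. Fn1 was 125 and 158 FPKM, Nid1 22.4 and 27.8, and Lama1 6.90 and 7.95. Known Yap1 targets were at least 2-fold lower for 3 of 3 tested in each library labelled as a knockout and for 2 of 3 in this knockdown.

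In 1 limma fit over the knockout and knockdown arms, with a term for the arm, 0 of 29 members passed, against 0% of all genes called higher and 0.0165% called lower. Unadjusted, 8 of the 29 (27.6%) had a p under 0.05, beside 6.75% of all genes. Fn1 was the 1 higher (log2 change 0.35), and the 7 lower included Hspg2 (-0.58), Lama5 (-0.59), Loxl1 (-0.59), Col18a1 (-0.55), Col1a1 (-0.48) and Sparc (-0.65). The smallest limma adjusted p among the members was 0.660.

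The undifferentiated controls differed from each other for some members. BirA against ESC had 0 of 29 members at least 2-fold higher and 0 lower, where 1.14% and 0.686% of all genes were. Control against ESC had 2 higher and 0 lower, where 3.02% and 1.91% of all genes were. Those 2 were Plod2, a lysyl hydroxylase, at 24.5 FPKM against 7.98, and Lamb3 at 2.45 against 0.560. With a pseudocount of 0.1 FPKM the count of 2 became 5, and the share of all genes at that setting is not given here.

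**Figure D2:**
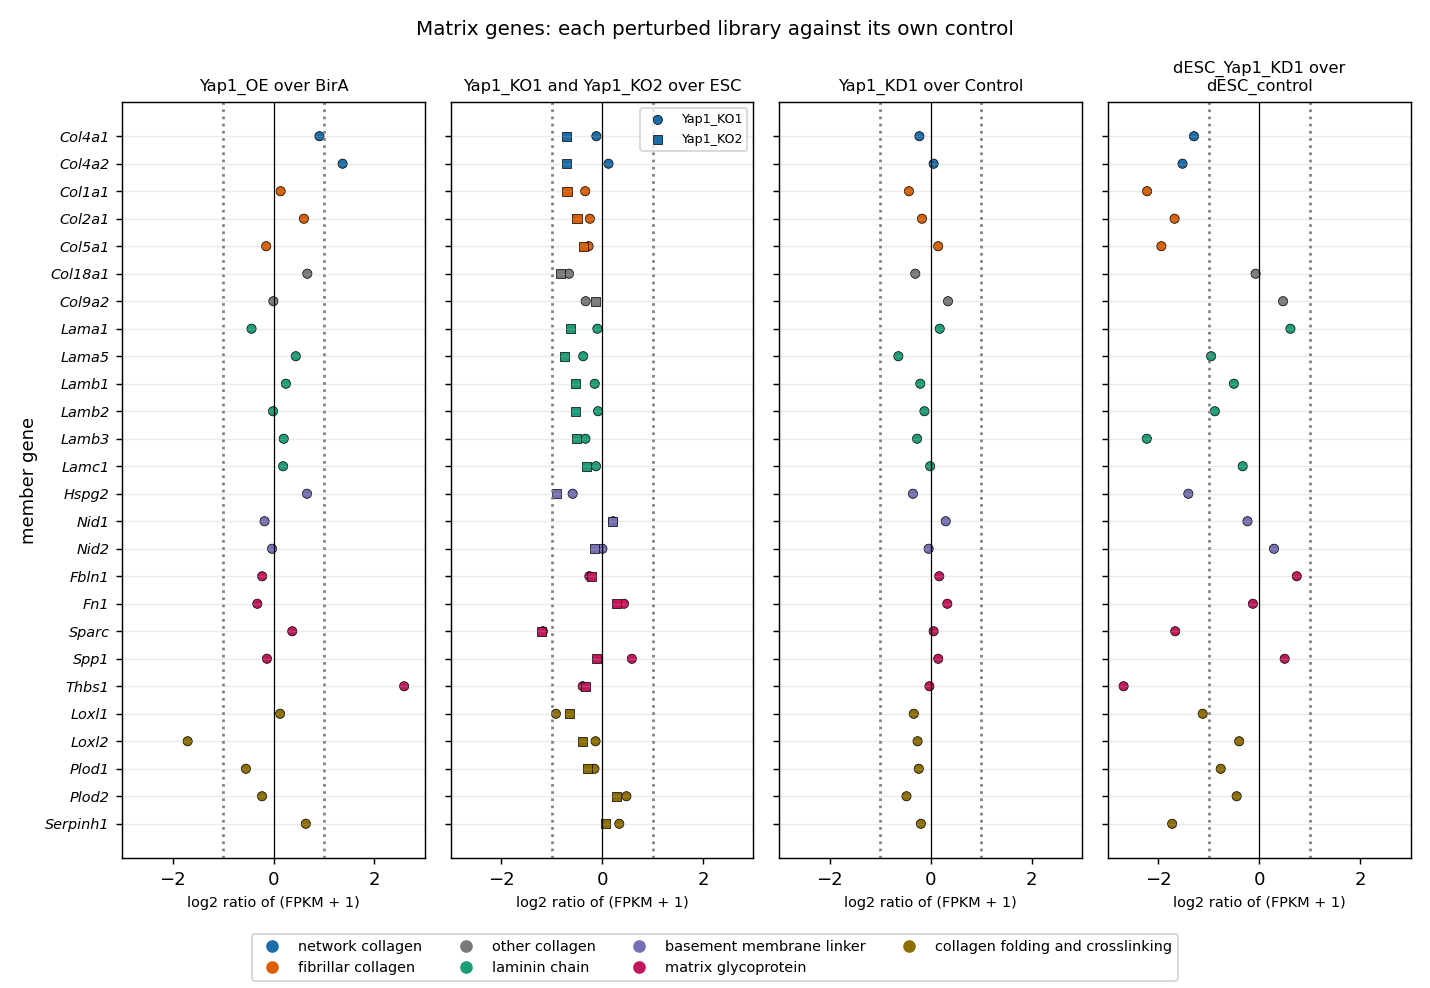
Log2 ratio of FPKM + 1 (horizontal axis) of each perturbed library over its own control, 1 panel per comparison, for 26 members at 5 FPKM or more in a library; dotted lines mark 2-fold, and the panel of knockout libraries shows both. No point of the knockdown in undifferentiated cells reaches a dotted line, while the collagen IV, fibrillar collagen and Lamb3 points of the differentiated knockdown lie left of -1.

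Differentiation of the control cells brought a gain of collagen IV, most fibrillar chains tested and several basement membrane genes. Setting dESC_control against Control, 16 of 35 members tested were at least 2-fold higher, where 13.1% of all genes were, and 6 were lower, where 10.1% were. Of the 16, Thbs1, Col2a1 and Col5a2 were under 1 FPKM in Control, were tested through dESC_control alone, and could count only as higher. Of the 6, Lama1, Col26a1 and Col5a3 were tested through Control alone and could count only as lower. The median log2 ratio of the members was 0.98, beside 0.040 for all genes. The 16 include both collagen IV chains, 4 fibrillar chains, the laminin chains Lama5, Lamb1 and Lamb3, perlecan, Col18a1, Sparc, Thbs1, Serpinh1 and Loxl1. Of 7 other collagens tested Col18a1 alone was higher and 2 were lower, with a median log2 ratio of -0.84.

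The label was checked against markers. Of 6 ES cell markers 5 were at least 2-fold lower in dESC_control, although Pou5f1 remained at 927 FPKM. All 4 mesoderm markers tested were higher, with a summed level of 110 FPKM against 3.98 in Control, and T (Brachyury) alone was 70.7 FPKM. Trophoblast markers summed to 79.9 FPKM against 28.1, with 4 of 6 tested higher and 1 lower, Tfap2c at 8.87 against 20.9. Eomes, at 22.0 FPKM against 2.75, is in both the mesoderm and trophoblast lists and counts in both sums. Endoderm markers summed to 10.2 FPKM against 5.27, with Afp listed at 0. Of 3 endoderm markers tested 1 was at least 2-fold higher, Dab2 at 5.90 FPKM against 0.993, and most of the difference in the sum was Dab2. Amn was lower, at 1.22 FPKM against 3.09. Endothelial markers summed to 7.42 FPKM against 35.6. Most of that sum was Pecam1, at 5.02 FPKM against 32.1, a gene at 24.3 to 38.1 FPKM in the undifferentiated libraries. Vwf was also lower, at 0.0676 FPKM against 1.40. Tek was 1.91 FPKM in both, and Kdr at 0.362 against 0.136 and Cdh5 at 0.0514 against 0.0443 were higher. Of 5 fibroblast markers tested 3 were at least 2-fold higher: Twist1 at 3.93 FPKM against 0.471, Twist2 at 1.58 against 0.0379, and S100a4 at 1.67 against a listed 0. The summed fibroblast list was lower, at 12.7 FPKM against 25.8, with Thy1 at 3.40 against 22.3, and Dcn reached 0.276 FPKM. In bulk RNA, more cells of a type and more RNA per cell cannot be told apart, and the part of cells with mesoderm or fibroblast markers in the matrix gain was not tested.

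Both chains of the collagen IV network were higher. Col4a1 was 4.32 FPKM in Control and 25.6 in dESC_control, a 5.93-fold difference, and Col4a2 was 1.56 and 17.7, an 11.4-fold difference. Col4a1 exceeded Col4a2 by 2.78-fold in Control and by 1.45-fold in dESC_control, so the pair came closer to equal RNA levels.

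Fibrillar chains appeared from low levels. Col5a1, a minor chain that seeds fibrils, was 2.56 FPKM in Control and 18.3 in dESC_control. Col2a1, the cartilage fibril chain, was 0.807 and 9.32 FPKM, and Col1a1, the main chain of bone and skin fibrils, was 1.06 and 5.73. Col5a2 was 0.105 and 2.84 FPKM. Col1a2, the partner of Col1a1 in ordinary type I collagen, stayed under 1 FPKM at 0.660 in dESC_control. Col5a3 was the fibrillar chain that was lower, at 1.32 and 0.141 FPKM.

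Among folding and crosslinking genes directions were mixed. Serpinh1 was 16.1 FPKM in Control and 118 in dESC_control, 7.32-fold higher. Loxl1, a lysyl oxidase of elastic fibres, was 1.43 and 5.62 FPKM. Lox, a further lysyl oxidase, was 0.0392 and 0.363 FPKM, about 4.17 and 33.2 fragments, and stayed under the level tested. Other enzymes were lower, with Loxl2 at 6.28 and 3.05 FPKM, Plod1 at 17.4 and 11.4, and Plod2 at 24.5 and 13.1. None of them passed 2-fold on log2(FPKM + 1), though Loxl2 did so in FPKM. Genes induced by low oxygen were at least 2-fold lower for 9 of 13 in the same comparison, and their part in these enzyme levels was not tested. Of 13 other collagen-modifying genes tested 4 were at least 2-fold higher and 2 lower, with Bmp1 at 0.742 and 19.95 FPKM, Loxl4 at 0.0881 and 4.71, Plod3 at 11.2 and 33.7, and Pcolce lower at 62.1 and 26.2.

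Laminin chains shifted in kind. Lama1, the alpha chain of the earliest embryonic basement membranes, was 6.90 FPKM in Control and 0.955 in dESC_control, and Lama5, the alpha chain of most later ones, was 15.1 and 45.2. The ratio of Lama5 to Lama1 was therefore 2.19 in Control and 47.3 in dESC_control. Lamb1 was 19.5 and 54.8 FPKM while Lamc1 stayed at 56.7 and 59.2, so the gamma chain no longer exceeded the beta chain by much: Lamc1 was 1.08 times Lamb1, where it was 2.90 to 4.75 times Lamb1 in the undifferentiated libraries. The epithelial chain Lamb3 was 2.45 and 8.32 FPKM.

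The linkers parted. Hspg2 was 13.3 FPKM in Control and 54.3 in dESC_control, Nid1 was 22.4 and 8.01, and Nid2 was 86.6 and 74.0. Among glycoproteins Sparc was 92.4 and 304 FPKM, the highest level of any member in any library. Fn1 was 125 and 140 FPKM, Fbln1 (fibulin) 20.1 and 17.4, and Spp1 166 and 23.1, so Spp1 was 7.20-fold lower. Thbs1 was 0.0449 FPKM in Control, about 5.88 fragments, and 106 in dESC_control. The other members at least 2-fold lower were Col26a1 at 3.13 and 0.272 FPKM and Col9a2 at 6.96 and 2.81.

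**Figure D3:**
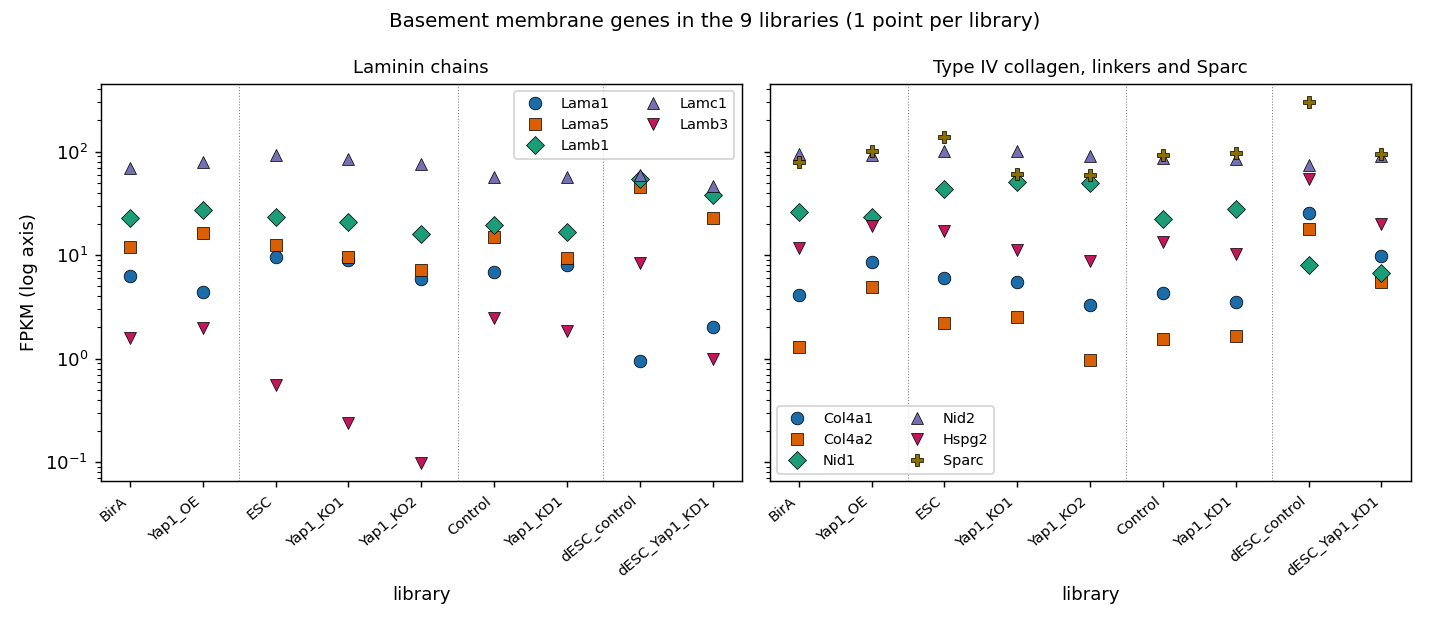
FPKM (log axis) of laminin chains (left) and of collagen IV, linkers and Sparc (right) in the 9 libraries, 1 point per library; dotted lines part the 4 experiments. Lama1 is below every other chain drawn in dESC_control at 0.955 FPKM while Lama5 reaches 45.2, and Sparc reaches 304.

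In differentiated cells with the Yap1 knockdown, collagen IV, the fibrillar chains tested, the collagen chaperone Serpinh1 and the laminin chain Lamb3 were lower than in the differentiated control. Of 32 members tested 14 were at least 2-fold lower, where 4.77% of all genes were, and 0 were higher, where 1.71% were. Among the 14, Col1a1, Col5a2, Col6a2 and Lamb3 were under 1 FPKM in dESC_Yap1_KD1 and were tested through dESC_control alone. Such a gene could count only as lower, and the shares of all genes follow the same rule. The median log2 ratio of the members was -0.92, beside -0.011 for all genes, and 26 of the 32 were below the control. These are 2 single libraries, and dESC_control is also 1 side of the comparison with Control above, so the 2 sets of values are not independent.

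Of the fibrillar chains Col1a1 was 5.73 FPKM in dESC_control and 0.444 in dESC_Yap1_KD1, 7.75% of the control. Col5a1 was 18.3 and 4.03 FPKM (22.1%), and Col2a1 9.32 and 2.23 (23.9%). Col5a2 was 2.84 and 0.912 FPKM and Col6a2, a chain of beaded microfibrils, 2.21 and 0.587. Of 5 other collagens tested Col6a2 was the 1 past 2-fold on log2(FPKM + 1). Col7a1 was 1.44 and 0.254 FPKM, 17.6% of the control, and missed that line with a log2 ratio of -0.96. Col9a2 at 2.81 and 4.29 FPKM and Col9a3 at 1.07 and 1.85 were above the control. The chains counted as lower were all still detected, the scarcest being Col1a1 with about 34.7 fragments.

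The basement membrane was lower in part. Col4a1 was 25.6 FPKM in dESC_control and 9.87 in dESC_Yap1_KD1 (38.5%), Col4a2 was 17.7 and 5.52 (31.2%), and Hspg2 was 54.3 and 19.9. Lamb3 was 8.32 and 0.991 FPKM (11.9%), the steepest among laminin chains. The chains of the common trimer differed less: Lama5 was 45.2 and 22.9 FPKM, Lamb1 54.8 and 38.5, and Lamc1 59.2 and 47.0. Lamb2, another beta chain, was 5.84 and 2.72 FPKM (46.6%), past 2-fold in FPKM but not on log2(FPKM + 1), at -0.88. Nid1 was 8.01 and 6.67 FPKM, Nid2 74.0 and 91.0, and Lama1 0.955 and 2.004, the last 2 above the control. Lama1 was 2.10-fold higher in FPKM, with a log2 ratio of 0.62. Col18a1 was nearly equal at 161 and 153 FPKM. Perlecan, collagen IV and Lamb3 were thus past 2-fold while nidogens, Lamc1 and Col18a1 were not. Of the 14 lower members 8 had a promoter window. GGAATG occurred in 2 of them (Lamb3 and Col6a2, not in every window of either), CCAAT in 2 (Col4a1 and Col4a2) and GGGCGG in 6. In the same order the shares were 16.6%, 41.1% and 38.2% of all genes, and 14.3%, 32.7% and 65.3% of the 49 members. These counts were not tested.

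Thbs1 was 106 FPKM in dESC_control and 15.6 in dESC_Yap1_KD1, 14.7% of the control. Sparc was 304 and 95.2 FPKM (31.3%), close to the undifferentiated Yap1_KD1 at 96.3. Serpinh1 was 118 and 34.9 FPKM (29.7%), and Loxl1 5.62 and 2.05 (36.4%). Fn1 was 140 and 128 FPKM, Spp1 23.1 and 33.2, and Fbln1 17.4 and 29.8, none of them 2-fold apart.

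Genes outside the set that act on the matrix were counted in the same way. Of 13 other collagen-modifying genes tested 3 were at least 2-fold lower and 0 higher: Pcolce, the enhancer of procollagen cleavage, at 26.2 and 3.32 FPKM, Bmp1 at 19.95 and 4.93, and Loxl4 at 4.71 and 0.831. Of 13 matrix proteases and inhibitors 4 were lower and 0 higher. Of 9 other glycoproteins and proteoglycans 3 were lower, among them agrin (Agrn) at 42.6 and 14.2 FPKM and Gpc4 at 28.8 and 11.2, and 1 was higher, versican (Vcan) at 2.27 and 5.74.

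Cell type markers moved beside these genes. Mesoderm markers summed to 110 FPKM in dESC_control and 35.1 in dESC_Yap1_KD1, with 3 of 4 at least 2-fold lower and T at 70.7 and 19.96 FPKM. Trophoblast markers summed to 79.9 and 48.3 FPKM, with 2 of 6 at least 2-fold lower. Of these 6, 5 were below the control and 1 above, Tfap2c at 8.87 and 18.4 FPKM. Eomes, in both the mesoderm and trophoblast lists, was 22.0 and 12.7 FPKM. Endoderm markers summed to 10.2 and 5.82 FPKM, and most of that difference was Dab2, at 5.90 and 1.77. The other 2 endoderm markers tested were near the control, Gata4 at 1.434 and 1.431 FPKM and Amn at 1.22 and 1.30. ES cell markers summed to 1171 and 1586 FPKM, with 2 of 6 higher, and Pou5f1 was 927 and 1120. Of 5 fibroblast markers tested 4 were below the control, among them S100a4 at 1.67 and 0.245 FPKM, Twist2 at 1.58 and 0.645, and Pdgfrb at 1.22 and 0.506, with 1 of the 5 at least 2-fold lower. Thy1 was higher at 3.40 and 8.21 FPKM, and the list summed to 12.7 and 13.0. Endothelial markers summed to 7.42 and 16.4 FPKM, most of it Pecam1 at 5.02 and 14.7. Vwf was also higher, at 0.0676 and 0.239 FPKM. Tek at 1.91 and 1.23, Kdr at 0.362 and 0.190, and Cdh5 at 0.0514 and 0.0189 were lower. The part of all these cell types in the lower matrix genes was not tested. Among 4 known targets of Yap1, 3 were at least 2-fold lower, and genes induced by low oxygen showed 1 higher and 1 lower of 12.

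The knockdown arm can also be followed through differentiation by itself, dESC_Yap1_KD1 against Yap1_KD1, a comparison added after the values were seen. It shares no library with dESC_control against Control. Both of its libraries are those of the knockdown comparisons above, so it is not independent of them. Of 29 members tested, 8 were at least 2-fold higher, where 10.3% of all genes were, and 6 were lower, where 10.4% were. Among these, Thbs1 and Col2a1 were tested through dESC_Yap1_KD1 alone, and Col26a1 and Col5a3 through Yap1_KD1 alone. The median log2 ratio was -0.25, beside 0.0035 for all genes. In the control arm 16 were higher, and the 8 of the knockdown arm were all among them. The share of all genes higher in both arms is not given here, so this overlap is not set against genes in general.

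The 8 were Thbs1, Col18a1, Col4a1, Col4a2, Serpinh1, Lama5, Lamb1 and Col2a1, so collagen IV, Lama5 and Lamb1 were higher in both arms. Col2a1 had a log2 ratio of 1.01 in the knockdown arm, and 0.71 with the GC trend removed. Col4a1 was 3.56 FPKM in Yap1_KD1 and 9.87 in dESC_Yap1_KD1, and Col4a2 1.66 and 5.52. Serpinh1 was 13.9 and 34.9 FPKM, Lama5 9.35 and 22.9, and Col18a1 57.5 and 153. For Col18a1 the log2 ratio was 1.40 in the knockdown arm and 1.17 in the control arm, so its gain was not smaller under the knockdown.

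For other members the arms parted. Sparc had a log2 ratio of 1.71 in the control arm and -0.02 in the knockdown arm, and Col1a1 had 1.71 and -0.09. Lamb3 was 1.86 FPKM in Yap1_KD1 and 0.991 in dESC_Yap1_KD1. Col5a1 had 2.44 and 0.35, and Hspg2 was 10.2 and 19.9 FPKM in the knockdown arm. Each arm has 1 library per state, and the difference between arms was not tested. The same libraries gave the knockdown ratios above, so the gap between arms is not a second set of data.

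The losses of differentiation were alike in direction in both arms. Lama1, Nid1, Spp1, Col26a1 and Col5a3 were at least 2-fold lower in each, and the knockdown arm added Plod1 at 14.6 and 6.29 FPKM while the control arm added Col9a2. The share of all genes lower in both arms is not given here. Spp1 was 185 FPKM in Yap1_KD1 and 33.2 in dESC_Yap1_KD1, and Nid1 was 27.8 and 6.67. The ratio of Lama5 to Lama1 was 1.18 in Yap1_KD1 and 11.4 in dESC_Yap1_KD1, a shift in the direction seen in the control arm. Fn1 was 158 and 128 FPKM, Nid2 84.2 and 91.0, Lamc1 56.3 and 47.0, and Lama1 7.95 and 2.004.

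**Figure D4:**
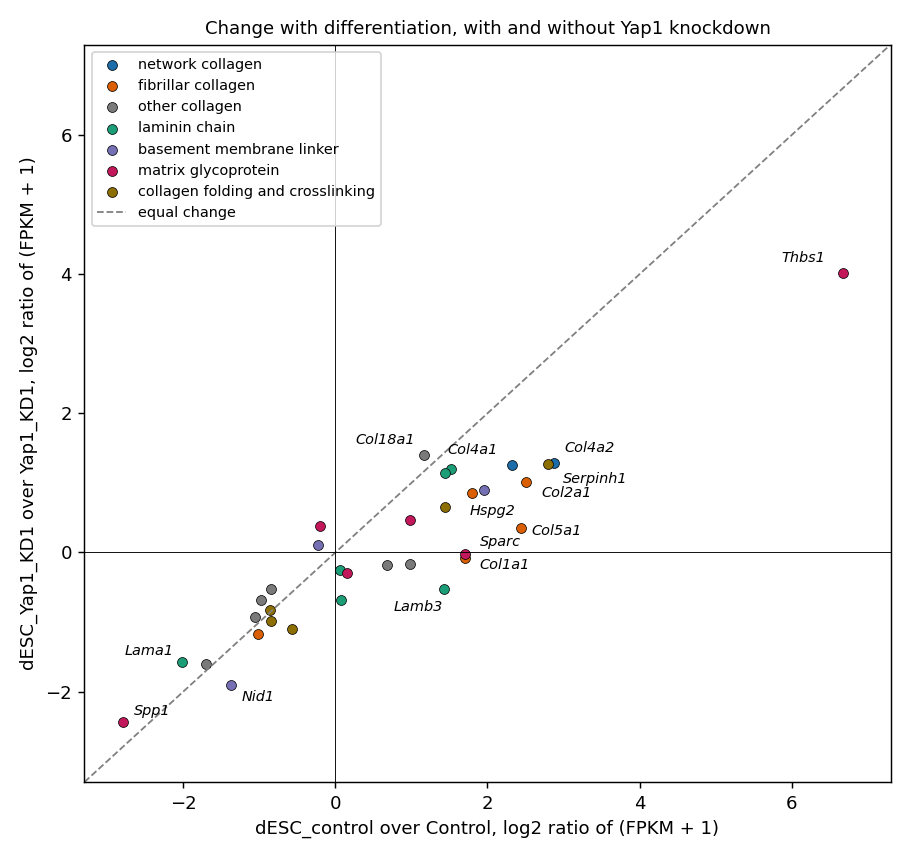
Log2 ratio of FPKM + 1 with differentiation in the control arm (horizontal) and in the knockdown arm (vertical), 1 point per member, coloured by role; the dashed line marks equal change. Sparc and Col1a1 lie at 1.71 on the horizontal axis and near 0 on the vertical, Lamb3 lies below 0 on it, and Lama1, Nid1 and Spp1 are low in both.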

How the data were processed

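The 9 libraries of J1 ES cells are described in 1 deposited table, whose values were taken as the authors' FPKM because Cuffdiff gives that unit; TopHat2, Cuffdiff and the build mm9 are named, per the submitters' processing notes. Versions, annotation and strandedness were not given in the sources used here. Of 23277 rows, 4746 were blank and 27 had symbols turned into dates, which left 18504 genes.

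Ratios were computed on log2(FPKM + 1), which understates low genes, over genes reaching 1 FPKM in one of the libraries compared; folds and percentages of single genes are ratios of FPKM. The knockout pair against ESC (1 residual degree of freedom) and both arms together (2) were fitted in R 4.3.3 by limma 3.58.1 with its trend option, p-values being adjusted over all genes (Benjamini-Hochberg, 0.05), after tests on simulated data; a lone control is assumed to vary like the pair. Depth was estimated from the steps between low FPKM values, scaled over 110 genes, and covers counting error only. A 0 can be a failed estimate.

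Members and lists were chosen with earlier results of these data known. Named were members at 5 FPKM or more that were 2-fold apart, 12 basement membrane genes in every comparison, and up to 4 genes of each list; others were named after their values were seen. Alternatives changed the pseudocount, filter, centring, GC trend, small RNA rows, controls and replicates. Promoters are from RefSeq and of another build than mm9, so they carry no measured value. Values of 1 member are not reported here and not plotted, though counts and medians of members include it.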

Additional observations from a re-analysis of the deposited data

Results flagged for a closer look

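Changes with the knockdown that pointed opposite ways in differentiated and undifferentiated cells, with at least 1 of them 2-fold, were singled out for 4 members; each rests on 1 library per group, and the difference was not tested. For Col5a1 the log2 ratio of knockdown over control was -1.94 in differentiated cells and 0.15 in undifferentiated ones. Sparc had -1.66 and 0.059, and Col4a2 had -1.52 and 0.059. Col6a2 had -1.02 and 0.13, from levels of 2.21 FPKM or less. The values in undifferentiated cells all lie within 0.15 of 0.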

How the results depend on the processing

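Every member count in the differentiated knockdown, in both arms of differentiation and in the undifferentiated knockdown stayed within 1.5 times under each setting run, and no direction reversed among 384 recomputed values of single members, of which 373 stayed on their side of the threshold. In the overexpression library the 3 higher members became 5 and the 1 lower became 4 with a pseudocount of 0.1 FPKM, and with ESC as the control they became 1 and 0. Between controls, the 0 higher members of BirA over ESC became 1, and the 2 of Control over ESC became 5, with that pseudocount, and 1 with a filter of 5 FPKM; these, and the settings of the knockdown arm of differentiation, were chosen after seeing the data. The 1 member lower in both knockout libraries became 2 with a pseudocount of 0.1, and 1 to 2 when either library was left out, 2 without Yap1_KO1. The shares of all genes beside these changed 2-fold counts are not given here. The 0 members called lower by limma in the knockout pair became 1 (Sparc) with the GC trend removed, 1 without small RNA rows and 2 (Sparc and Col18a1) with genes centred on their median. Over all genes, the 20 calls of that fit became 40, 48 and 185 in those settings, 0 without the filter and 1 with 3 controls. The joint fit's 2 calls became 1 with a pseudocount of 0.1, a filter of 5 FPKM or no filter, 4 without small RNA rows, 4 without Yap1_KO2 and 15 without Yap1_KO1. Near the 2-fold line, Col5a2 in the differentiated knockdown was -0.99 when centred, Col6a2 there was -0.98 with the GC trend removed, and Col18a1 in differentiation of the control was 0.84 with that trend removed, as was Col2a1 in the knockdown arm at 0.71. The cause was not tested. No paired analysis was possible because the groups compared share fewer than 2 replicate numbers. Depth limits the members under 1 FPKM, where Yap1_KO1 is the shallowest.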
